A study of Mus musculus with 8 samples.

Results

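Amino acid transporters of 7 solute carrier families were followed in RNA from pancreatic islets of 12-week-old C57BL/6 mice, in 4 libraries of ob/+ and 4 of ob/ob genotype. Both genotypes carry the ob allele, a mutation of the leptin gene Lep, in 1 copy in ob/+ and in both copies in ob/ob, and no treatment is given in the labels. The members are the listed genes whose symbols begin with Slc1a, Slc3a, Slc6a, Slc7a, Slc36a, Slc38a or Slc43a, apart from 4 symbols of the SLC7 and SLC38 families that the rule leaves out. They number 57 of the 17401 genes with values, and 3 further symbols (Slc6a14, Slc6a16 and Slc7a12) were listed without a value in any library. The comparison asks which of these transporter transcripts differ between islets of ob/ob and ob/+ mice. Nothing in the labels ties a library to a mouse of its own, so the p-values cover only library-to-library spread, part of which may be technical.

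Islets are clusters of endocrine cells, in which beta cells make and secrete insulin. Amino acids enter these cells through carriers that differ in what they move and in what drives them. Sodium-coupled carriers concentrate amino acids, exchangers swap one for another across the membrane, and facilitators let them run down their gradient. Lysosomal carriers return amino acids from protein breakdown to the cytosol. Glutamine, leucine, arginine and alanine are known to potentiate insulin secretion, and beta cells also make the transmitter GABA. The gene families cut across these roles and reach beyond them. Slc6a6 carries taurine and Slc6a8 creatine, Slc6a2, Slc6a3 and Slc6a4 carry monoamines, and Slc43a3 is known as a carrier of purine nucleobases. Slc6a19os, an antisense RNA, and Slc7a6os, a gene next to Slc7a6, were members by their symbols and encode no carrier of the family.

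The deposited values name no unit and were read from their form as FPKM, fragments scaled to transcript length and to the sequenced total, so levels of different genes can be set side by side. Absolute depth is unknown, and relative depth, roughly estimated from the steps of low values, ran from 0.979 to 1.03. Between 11363 and 11883 genes a library reached 1 FPKM. The labelled tissue carried its defining markers: 10 beta cell markers took 52.5% ± 5.66 of summed FPKM in ob/+ and 65.8% ± 3.78 in ob/ob (SD, n = 4 each; two-sided exact permutation test, p = 0.0286, which is the lowest possible with 4 against 4; adjusted p = 0.0429 over 3 measures). That share is carried by the hormone genes: Ins2 and Iapp rose, while 4 of the 10 fell, Mafa and Ucn3 among them, and the median log2 fold change of the list was -0.39. The 26 acinar markers, genes of the enzyme-making cells around islets, took 7.24% to 24.5% in ob/+, highest in ob/+ 4, and 3.13% to 11.0% in ob/ob, highest in ob/ob 1. Of the other cell types, 2 of 4 tested duct markers rose, and of 6 stellate and pericyte markers 2 rose and 3 fell. None of 26 acinar, 6 endothelial, 5 macrophage and 2 lymphocyte markers tested was called by limma, with 3, 0, 1 and 0 of them at an unadjusted p under 0.05. FPKM are relative to the library total, so any class of transcripts that takes more of it leaves less for the rest. In ob/+ 4, 24 of the 29 tested members had the lowest of the 4 ob/+ values, or 82.8%, as did 79.6% of all tested genes.

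Of the 57 members, 29 reached 1 FPKM in at least 4 libraries and were tested on log2(FPKM + 1) with limma, with Benjamini-Hochberg adjustment over all 11747 tested genes. In ob/ob islets 2 members rose, Slc38a11 and Slc36a1, and 2 fell, Slc7a8 and Slc3a2, at an adjusted p under 0.05. Those 4 make up 13.8% of the tested members, where 18.8% of all tested genes were called (8.21% higher and 10.6% lower). The median log2 fold change, ob/ob minus ob/+, was -0.04 over the tested members and -0.07 over all tested genes. A log2 fold change under 0.3 in size was found for 25 of the 29 members and for 74.3% of all tested genes. All ob/ob values lay beyond all ob/+ values for 3 of the 29, Slc7a8, Slc36a1 and Slc38a11, and for 20.5% of all tested genes. The other 28 members lay below the filter, and 4 of them are described last.

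**Figure D1:**
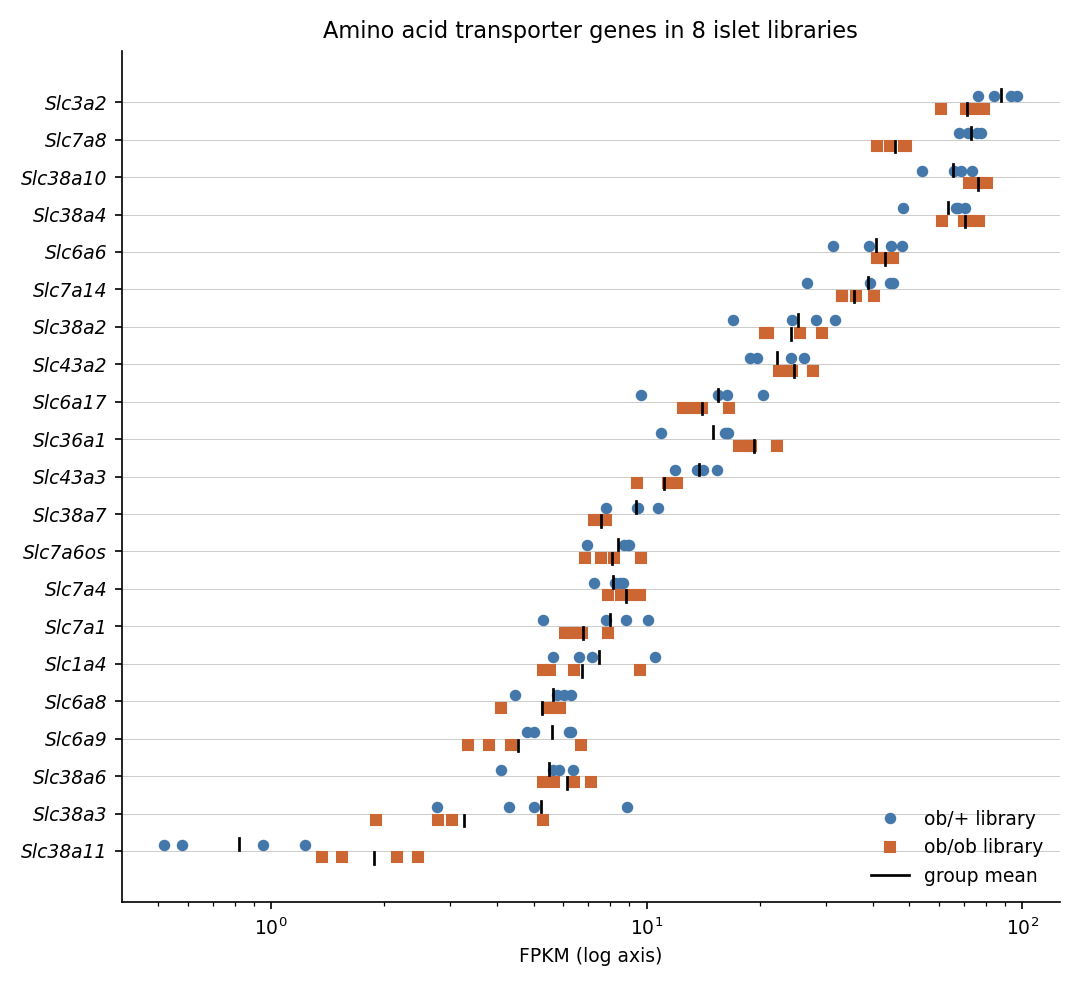
FPKM on a log axis of the 21 members that passed the test or averaged at least 5 FPKM in a genotype, with ob/+ libraries as circles, ob/ob libraries as squares and group means as bars. The 4 ob/ob libraries of Slc7a8 sit between 41.2 and 49.0 FPKM, below the 4 ob/+ libraries at 67.7 to 77.8.

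The heavy chain Slc3a2 and its light chain partner Slc7a8 were the 2 most abundant members in ob/+ islets, and both fell in ob/ob islets. Slc7a8 (GRCm38 chromosome 14, 54722209 to 54781946, minus strand) encodes an exchanger of neutral amino acids that works only when joined to the Slc3a2 protein. It was at 71.5, 75.7, 77.8 and 67.7 FPKM in ob/+ 1 to 4 and at 44.3, 49.0, 48.4 and 41.2 in ob/ob 1 to 4. All 4 ob/ob libraries lay below the lowest ob/+ library. The means were 73.2 ± 4.48 and 45.7 ± 3.68 FPKM (SD, n = 4 each), and the log2 fold change was -0.67 ± 0.10 (SE; limma adjusted p = 1.19e-05). The call of Slc7a8 held in each of 20 alternative settings, with log2 fold changes of -0.96 to -0.55.

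Slc3a2 (chromosome 19, 8706882 to 8723369, minus strand) encodes the heavy chain that carries light chains of the SLC7 family to the cell surface. It was at 93.1, 96.9, 84.3 and 76.0 FPKM in ob/+ 1 to 4 and at 73.9, 79.2, 70.7 and 60.6 in ob/ob 1 to 4. The groups overlapped, since ob/ob 2 was above ob/+ 4. Its means were 87.6 ± 9.33 and 71.1 ± 7.80 FPKM (SD, n = 4 each), a log2 fold change of -0.30 ± 0.10 (SE; limma adjusted p = 0.0434). The fall of Slc3a2 was negative under all 20 alternatives but passed the test in 10 of them. It was lost on leaving out ob/+ 1 (adjusted p = 0.14), ob/+ 2 (0.129), ob/+ 3 (0.0692), ob/ob 1 (0.07), ob/ob 3 (0.0775) or ob/ob 4 (0.177), and with a scaling that ignored the 10 most abundant genes (log2 fold change -0.18, adjusted p = 0.427). The fall of Slc3a2 also missed the threshold with median centring (log2 fold change -0.23, adjusted p = 0.0734), without the filter (0.0825) and without the robust option (0.0669). With the acinar markers left out of the scaling the log2 fold change was -0.59, and the call held.

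The ratio of Slc7a8 to Slc3a2 within a library does not depend on the library scaling. It was 0.768, 0.781, 0.922 and 0.891 in ob/+ 1 to 4 and 0.60, 0.619, 0.684 and 0.679 in ob/ob 1 to 4. Each ob/ob library had a lower ratio than each ob/+ library, with means of 0.646 ± 0.042 against 0.841 ± 0.077 (SD, n = 4 each). This ratio, and the 3 others below, were chosen after the values were seen and carry no test. Most markers of alpha cells fell in ob/ob islets too, as did most tested markers of Schwann cells and neurons. Of 6 alpha cell markers 5 fell and 1 rose, none was at 0, and their sum ran from 25247 to 31791 FPKM in ob/+, against 8666 to 12039 in ob/ob. All 4 markers of delta and PP cells fell, none was at 0, and their sum ran from 9862 to 13331 FPKM in ob/+, against 2570 to 4073 in ob/ob. Their part in the fall of Slc7a8 and Slc3a2 was not tested, and in bulk islets fewer cells of a type and less RNA per cell cannot be told apart.

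The promoters of Slc7a8 and of Slc38a11, Slc38a8 and Slc1a1, which passed a test in the other direction with the largest ratios of means, are shown so that these genes can be compared base by base. Each sequence is the stretch upstream of the gene's start, 5′ to 3′ on the gene's strand, from RefSeq on GRCm38.p6, ending before the outermost start in the GENCODE annotation. Capitals mark GC boxes (GGGCGG on either strand), the binding motif of Sp family factors.
Slc7a8, chr14:54781947-54782136, minus strand: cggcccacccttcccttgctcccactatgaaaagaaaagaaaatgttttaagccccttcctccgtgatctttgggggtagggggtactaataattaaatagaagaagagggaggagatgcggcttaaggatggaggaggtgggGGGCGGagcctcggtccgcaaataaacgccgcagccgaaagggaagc
Slc38a11, chr2:65364035-65364276, minus strand: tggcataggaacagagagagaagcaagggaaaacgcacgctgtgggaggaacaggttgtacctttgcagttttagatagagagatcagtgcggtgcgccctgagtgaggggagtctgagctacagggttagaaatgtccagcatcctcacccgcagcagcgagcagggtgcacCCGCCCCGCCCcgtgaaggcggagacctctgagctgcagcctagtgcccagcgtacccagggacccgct
Slc38a8, chr8:119501699-119501948, minus strand: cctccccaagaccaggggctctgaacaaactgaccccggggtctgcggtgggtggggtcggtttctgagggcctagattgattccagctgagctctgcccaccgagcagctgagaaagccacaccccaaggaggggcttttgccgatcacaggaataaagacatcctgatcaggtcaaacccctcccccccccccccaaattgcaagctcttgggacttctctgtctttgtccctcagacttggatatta
Slc1a1, chr19:28834885-28835048, plus strand: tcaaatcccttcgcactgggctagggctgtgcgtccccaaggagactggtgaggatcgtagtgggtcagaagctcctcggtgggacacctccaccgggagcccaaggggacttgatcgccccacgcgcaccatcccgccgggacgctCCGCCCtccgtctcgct

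In the 250 bases upstream of the RefSeq start, Slc7a8 and Slc1a1 each held 1 GC box, Slc38a11 held 2 that share 1 base, and Slc38a8 held none. Over all members with an entry (42 genes, 63 windows) 49.2% of windows held a GC box, against 32.7% of the 32851 windows of all genes. The core of the amino acid response motif (TGATGNAA), bound by ATF4 when amino acids are short, was in 3.17% of the members' windows and in 3.45% of all windows. The E-box CACGTG was in 11.1% and 6.02%, the cAMP response motif TGACG in 22.2% and 17.8%, CCAAT in 22.2% and 33.8%, and TATAAA in 9.52% and 12.4%. Apart from the GC boxes, none of these motifs was found on either strand of the 4 windows. A match describes letters only, windows of 1 gene can overlap, and these shares carry no test.

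The other tested SLC7 carriers among the members did not pass the test, and the SLC7 symbols that the rule leaves out are not covered. Slc7a14, a relative of the cationic amino acid carriers, was at 38.9 ± 8.57 FPKM in ob/+ and 35.7 ± 3.31 in ob/ob (SD, n = 4 each; limma adjusted p = 0.676). Slc7a1, which carries arginine and lysine, was at 8.0 ± 2.03 and 6.77 ± 0.812 FPKM (limma adjusted p = 0.412). Slc7a4, another relative of the cationic carriers, was at 8.15 ± 0.620 and 8.81 ± 0.766 FPKM (limma adjusted p = 0.597). Slc7a6 and Slc7a7, light chains that exchange cationic for neutral amino acids, averaged 4.80 and 1.29 FPKM in ob/+ and 4.76 and 1.07 in ob/ob, with log2 fold changes of 0.01 and -0.14. Slc7a8 was thus the only one of 7 tested SLC7 members, Slc7a6os included, that was called, where 18.8% of all tested genes were. Whether the fall of Slc7a8 differed from the changes of the other 6 was not tested. The neighbour Slc7a6os was at 8.38 ± 0.973 and 8.08 ± 1.19 FPKM (SD, n = 4 each; limma adjusted p = 0.819).

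The SLC38 family of neutral amino acid carriers held 8 tested members, of which Slc38a11 rose and the rest did not pass. Of all tested genes 18.8% were called. Slc38a11 (chromosome 2, 65316430 to 65364034, minus strand) was at 0.58, 0.95, 1.23 and 0.52 FPKM in ob/+ 1 to 4 and at 1.55, 1.37, 2.46 and 2.16 in ob/ob 1 to 4. Every ob/ob library was above the highest ob/+ library, ob/+ 3, the only ob/+ library of the 4 to reach 1 FPKM, so the gene met the filter mainly through ob/ob. The means were 0.820 ± 0.333 and 1.89 ± 0.511 FPKM (SD, n = 4 each), a ratio of 2.3. The log2 fold change of FPKM + 1 was 0.67 ± 0.15 (SE; limma adjusted p = 0.00193). It passed the test in each of 20 alternatives, at 0.24 with a pseudocount of 5 and 1.14 with a pseudocount of 0.1.

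The abundant SLC38 members were Slc38a10, Slc38a4 and Slc38a2. Slc38a10, whose protein is found inside cells, was at 68.8, 73.5, 66.0 and 54.2 FPKM in ob/+ 1 to 4 and at 75.2, 77.2, 80.5 and 72.4 in ob/ob 1 to 4. Only ob/ob 4 lay within the ob/+ range. Its log2 fold change of 0.22 ± 0.10 (SE) did not pass (limma adjusted p = 0.125). It depended on the scaling: it was called at 0.29 with median centring (adjusted p = 0.00481), at 0.28 with upper-quartile scaling (0.00564) and at 0.34 when the scaling ignored the 10 most abundant genes (0.0495), and was -0.07, not called, when it ignored the acinar markers. Slc38a4 and Slc38a2, sodium-coupled importers of small neutral amino acids known as system A, were at 63.3 ± 10.1 and 25.3 ± 6.29 FPKM in ob/+. In ob/ob they were at 70.2 ± 6.61 and 24.2 ± 4.10 FPKM (SD, n = 4 each; limma adjusted p = 0.356 and 0.895). The third carrier of system A, Slc38a1, lay at 0.06 to 0.52 FPKM over the 8 libraries.

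Slc38a7, which exports glutamine from lysosomes, was at 9.46, 10.7, 9.41 and 7.81 FPKM in ob/+ 1 to 4 and at 7.24, 7.75, 7.81 and 7.45 in ob/ob 1 to 4. No ob/ob library was above the lowest ob/+ library, with ob/ob 3 and ob/+ 4 equal at 7.81. The log2 fold change was -0.27 ± 0.12 (SE; limma adjusted p = 0.121). Within each library Slc38a10 exceeded Slc38a7 by a narrow multiple, 7.27, 6.84, 7.01 and 6.94 in ob/+ 1 to 4. In ob/ob 1 to 4 that ratio was 10.4, 9.96, 10.3 and 9.71, above every ob/+ value, with means of 10.1 ± 0.316 against 7.01 ± 0.185 (SD, n = 4 each). Neither gene passed the test alone with the deposited scaling, while both did with median centring and with upper-quartile scaling, and Slc38a7 was called lower in 6 of 20 alternatives. The ratio of Slc38a4 to Slc38a2 was 2.55 ± 0.30 in ob/+ and 2.99 ± 0.690 in ob/ob, with overlapping groups.

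**Figure D2:**
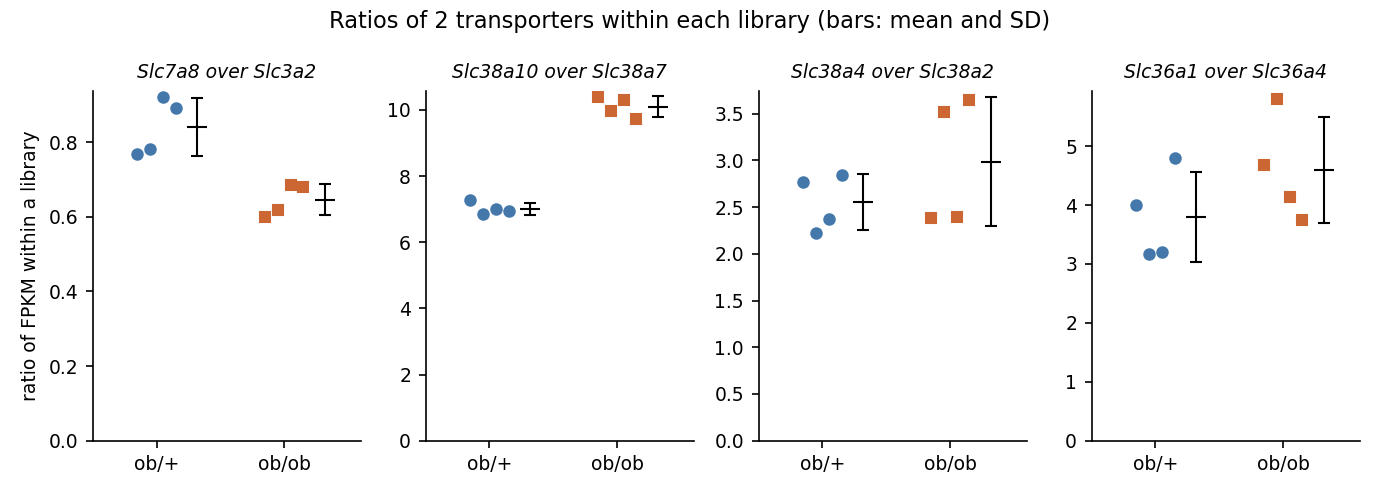
Ratios of FPKM of 2 transporters within each library, with ob/+ libraries as circles, ob/ob libraries as squares, and means with SD as bars. The groups are apart for Slc7a8 over Slc3a2 (0.60 to 0.684 in ob/ob, 0.768 to 0.922 in ob/+) and Slc38a10 over Slc38a7, and overlap for Slc38a4 over Slc38a2 and Slc36a1 over Slc36a4.

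Of the other SLC38 members, Slc38a6 was at 5.49 ± 0.974 and 6.12 ± 0.800 FPKM (SD, n = 4 each; limma adjusted p = 0.503). Slc38a9, the lysosomal arginine sensor upstream of the growth kinase mTORC1, was at 1.17 ± 0.216 and 1.15 ± 0.076 FPKM (limma adjusted p = 0.961). Slc38a3, a glutamine carrier of system N, was at 4.31, 2.77, 5.02 and 8.85 FPKM in ob/+ 1 to 4 and at 5.30, 1.90, 2.79 and 3.04 in ob/ob 1 to 4 (limma adjusted p = 0.377). Its highest value of each genotype fell in the library with the most acinar transcripts, ob/+ 4 and ob/ob 1. The log2 fold change of Slc38a3 was -0.52 and turned to 0.20 with the acinar share as a covariate, and neither passed the test. Whether acinar transcripts had a part in the values of Slc38a3 was not tested.

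Slc36a1 (chromosome 11, 55204350 to 55236330, plus strand) encodes a proton-coupled carrier of glycine, alanine and proline found on lysosomes and the cell surface. It was at 16.5, 16.2, 16.4 and 10.9 FPKM in ob/+ 1 to 4 and at 18.8, 18.9, 22.2 and 17.6 in ob/ob 1 to 4. All ob/ob libraries were above all ob/+ libraries, and ob/+ 4 stood apart from the other ob/+ libraries. The means were 15 ± 2.73 and 19.4 ± 1.98 FPKM (SD, n = 4 each), with a log2 fold change of 0.36 ± 0.13 (SE; limma adjusted p = 0.0467). Without ob/+ 4 the change of Slc36a1 was 0.23 (adjusted p = 0.0393). The test was not passed on leaving out ob/+ 1 (adjusted p = 0.0561), ob/ob 1 (0.0884), ob/ob 2 (0.0817), ob/ob 3 (0.14) or ob/ob 4 (0.0572). Nor was it at 0.08 with the acinar markers left out of the scaling (0.525) or at 0.19 with the acinar share as a covariate (0.319), or at 0.24 without both ob/+ 4 and ob/ob 1 (0.0551). Without the filter (0.1) and without the robust option (0.0657) Slc36a1 did not pass either.

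The related Slc36a4 was at 4.14 ± 1.33 and 4.33 ± 0.907 FPKM (SD, n = 4 each; limma adjusted p = 0.815). The ratio of Slc36a1 to Slc36a4 overlapped between genotypes, at 3.18 to 4.80 in ob/+ and 3.74 to 5.81 in ob/ob. Slc36a2 and Slc36a3, which lie beside Slc36a1 on chromosome 11, were at no more than 0.32 and 0.10 FPKM in any library.

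**Figure D3:**
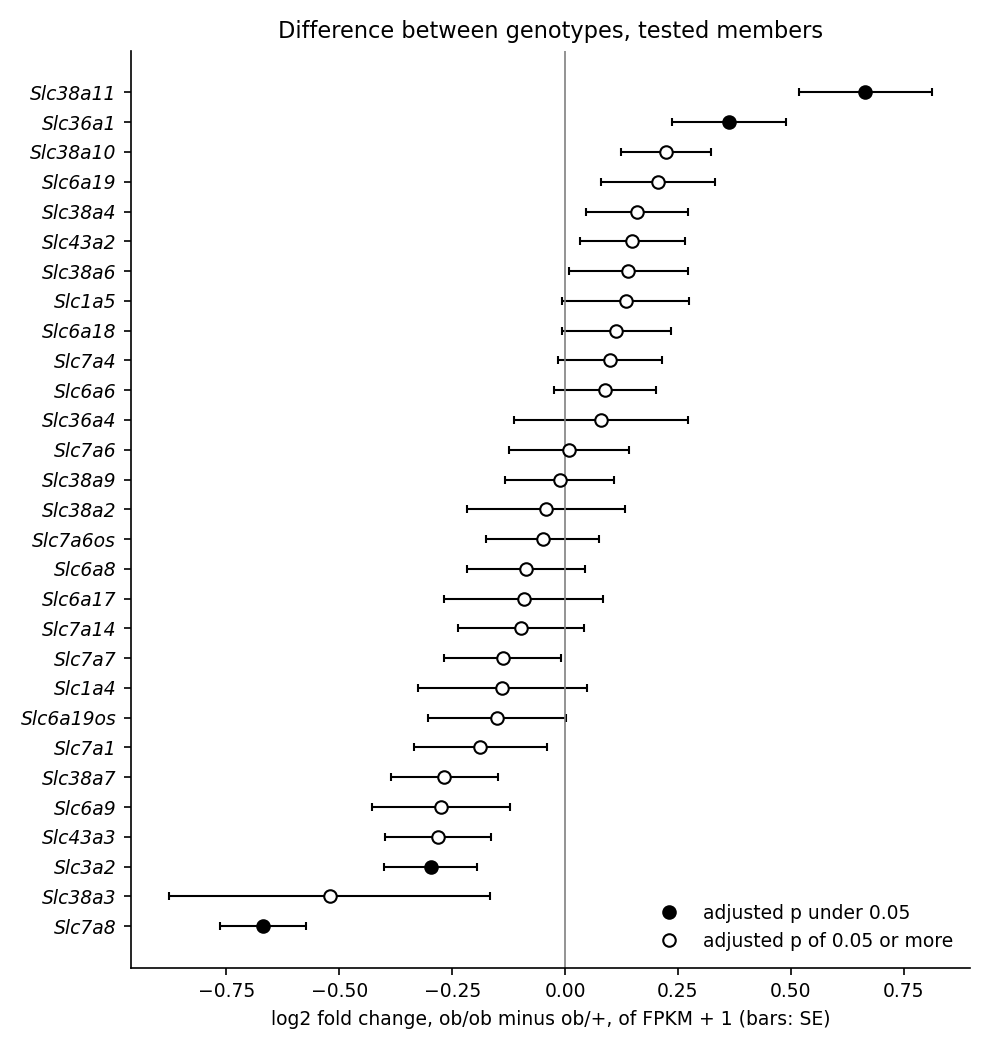
log2 fold change of FPKM + 1, ob/ob minus ob/+, of the 29 tested members, with SE as bars; filled points have a limma adjusted p under 0.05. Slc38a11 at 0.67 and Slc7a8 at -0.67 mark the ends, and 25 of the 29 points are under 0.3 in size.

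None of the 7 tested SLC6 members, 1 of them the antisense RNA Slc6a19os, passed the limma test, and 0 had an unadjusted p under 0.05. Over all tested genes 18.8% were called, and whether the family differed from that share was not tested. Slc6a6, the taurine carrier, was the most abundant, at 40.8 ± 7.24 FPKM in ob/+ and 43.0 ± 2.01 in ob/ob (SD, n = 4 each; limma adjusted p = 0.633). Slc6a17, a carrier of neutral amino acids on vesicles of neurons, was at 15.5 ± 4.42 and 14.1 ± 1.77 FPKM (limma adjusted p = 0.762). Slc6a8, the creatine carrier, was at 5.64 ± 0.813 and 5.26 ± 0.793 FPKM (limma adjusted p = 0.692). Slc6a9, the glycine carrier that ends glycine signalling, was at 6.22, 5.01, 4.81 and 6.31 FPKM in ob/+ 1 to 4 and at 6.68, 3.35, 4.36 and 3.80 in ob/ob 1 to 4. Its highest value of each genotype was in ob/+ 4 and ob/ob 1, each the library of its genotype richest in acinar transcripts. Library ob/+ 1, close to ob/+ 4 in Slc6a9, had an acinar share of 10.1%, and ob/+ 3, with the lowest ob/+ value, had 13.2%. The log2 fold change of Slc6a9 was -0.28, and 0.02 with the acinar share as a covariate, and neither passed the test. Any part of acinar transcripts in these values was not tested. The groups of Slc6a9 overlapped (limma adjusted p = 0.231). The exons of Slc6a9 share 1429 bases with Ccdc24 on the opposite strand, and since the counting is not stated to use strand, its reads cannot be told from those of such a neighbour.

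Slc6a19, which imports neutral amino acids in gut and kidney, was at 1.59 ± 0.087 and 2.01 ± 0.451 FPKM, and its relative Slc6a18 at 0.858 ± 0.183 and 1.00 ± 0.108 (SD, n = 4 each; limma adjusted p = 0.277 and 0.559). In kidney these carriers need Tmem27 (collectrin) to reach the cell surface. Tmem27, one of 9 listed partners and regulators, rose from 325.7 ± 26.0 to 642.6 ± 97.1 FPKM (log2 fold change 0.97 ± 0.10 SE; limma adjusted p = 1.07e-07). The kinase Sgk2 rose from 2.88 ± 0.577 to 6.08 ± 0.396 FPKM (SD, n = 4 each). Slc6a19os, antisense to Slc6a19, was at 2.72 ± 0.588 and 2.38 ± 0.729 FPKM (limma adjusted p = 0.536).

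The carriers of transmitters described next were at or near 0 in both genotypes. Slc6a11 and Slc6a13, which carry GABA, and the betaine and GABA carrier Slc6a12 reached at most 0.14 FPKM in any library. Slc6a2, Slc6a3 and the serotonin carrier Slc6a4 reached 0.10, 0.03 and 0.33 FPKM at most. The glycine carrier Slc6a5 and the proline carrier Slc6a7 reached 0.02 FPKM. Slc6a4 was at 0.04, 0.04, 0.04 and 0.10 FPKM in ob/+ 1 to 4 and at 0.33, 0.08, 0.13 and 0.21 in ob/ob 1 to 4, with overlapping groups, and lay below the filter.

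The SLC1 family held 2 tested members, both carriers of small neutral amino acids. Slc1a4 was at 6.6, 10.6, 7.15 and 5.64 FPKM in ob/+ 1 to 4 and at 5.31, 5.54, 9.59 and 6.40 in ob/ob 1 to 4, with 1 high library in each genotype (limma adjusted p = 0.657). Slc1a5, the glutamine carrier of many dividing cells, was at 3.19 ± 0.655 and 3.61 ± 0.857 FPKM (SD, n = 4 each; limma adjusted p = 0.556). The glutamate carriers Slc1a2, Slc1a3, Slc1a6 and Slc1a7 stayed below the filter, at no more than 0.61 FPKM in any library.

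Both tested SLC43 members overlapped between genotypes. Slc43a2, a facilitator of leucine and other large neutral amino acids, was at 22.3 ± 3.52 and 24.6 ± 2.23 FPKM (SD, n = 4 each; limma adjusted p = 0.401). Slc43a3 was at 15.4, 14.1, 13.6 and 11.9 FPKM in ob/+ 1 to 4 and at 9.45, 12.1, 11.4 and 11.6 in ob/ob 1 to 4. Only ob/ob 2 was above the lowest ob/+ library, and the log2 fold change of -0.28 ± 0.12 (SE) did not pass (limma adjusted p = 0.0996). Slc43a3 was called lower in 5 of 20 alternatives, among them upper-quartile scaling (adjusted p = 0.0388) and leaving out ob/+ 4 (0.00686). Slc43a1, a second facilitator of large neutral amino acids, was at most 0.20 FPKM.

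Below the filter, 28 members had values, of which 12 did not exceed 0.1 FPKM in any library. All ob/ob libraries lay beyond all ob/+ libraries for 5 of the 28, Slc38a8 and Slc1a1 above and Slc6a15, Slc6a20a and Slc43a1 below, as they did for 13.0% of all genes below the filter. When every gene with a value was fitted, 6 of the 57 members passed the test, where 14.6% of all 17401 genes did. Of the 28 below the filter 4 passed, as did 11.3% of all genes below it. These 4 were singled out after their values were seen, and at such levels each value rests on few fragments. In the same fit Slc7a8 and Slc38a11 passed, and Slc3a2 and Slc36a1 did not (adjusted p = 0.0825 and 0.1).

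Slc38a8 (chromosome 8, 119479602 to 119501698, minus strand), a glutamine carrier best known from the retina, was at 0.13, 0.20, 0.07 and 0.21 FPKM in ob/+ 1 to 4 and at 1.21, 1.29, 1.3 and 0.80 in ob/ob 1 to 4. Its lowest ob/ob value was well above its highest ob/+ value. The means were 0.153 ± 0.066 and 1.15 ± 0.237 FPKM (SD, n = 4 each), a ratio of 7.54, and the log2 fold change of FPKM + 1 without the filter was 0.89 ± 0.09 (SE; limma adjusted p = 7.17e-05). Slc1a1 (chromosome 19, 28835049 to 28913960, plus strand), a carrier of glutamate, aspartate and cysteine, was at 0.14, 0.22, 0.29 and 0.22 FPKM in ob/+ 1 to 4 and at 1.16, 0.84, 1.31 and 1.34 in ob/ob 1 to 4. All its ob/ob values were above all its ob/+ values as well. Its means were 0.218 ± 0.061 and 1.16 ± 0.229 FPKM (SD, n = 4 each), a ratio of 5.34, with a log2 fold change of 0.82 ± 0.09 (SE; limma adjusted p = 0.000124). The exons of Slc1a1 share 2631 of 8257 bases with 4430402I18Rik on the opposite strand, which was at 0.55 to 1.16 FPKM in ob/+ and 1.28 to 1.77 in ob/ob, so the 2 cannot be told apart where they overlap.

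Slc6a15, a sodium-coupled carrier of leucine, isoleucine, valine and proline known from neurons, was at 0.61, 0.49, 0.74 and 0.37 FPKM in ob/+ 1 to 4 and at 0.05, 0.13, 0.13 and 0.03 in ob/ob 1 to 4. The log2 fold change of FPKM + 1 without the filter was -0.51 ± 0.07 (SE; limma adjusted p = 0.000678), and the highest ob/ob value was below the lowest ob/+ value. Slc6a20a, a proline carrier, was at 0.22, 0.27, 0.42 and 0.28 FPKM in ob/+ 1 to 4 and at 0.03, 0.06, 0.15 and 0.03 in ob/ob 1 to 4 (-0.28 ± 0.05 SE; limma adjusted p = 0.00497). It shares 563 exonic bases with an antisense gene. Of 5 tested markers of Schwann cells and neurons 4 fell and none rose in the same comparison. The sum of all 8 listed ran from 51.2 to 70.6 FPKM in ob/+, against 30.1 to 40.0 in ob/ob, with none at 0. Of 6 alpha cell markers 5 fell and 1 rose, and all 4 delta and PP cell markers fell. The part of any of these cell types in the low values of Slc6a15 and Slc6a20a was not tested.

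**Figure D4:**
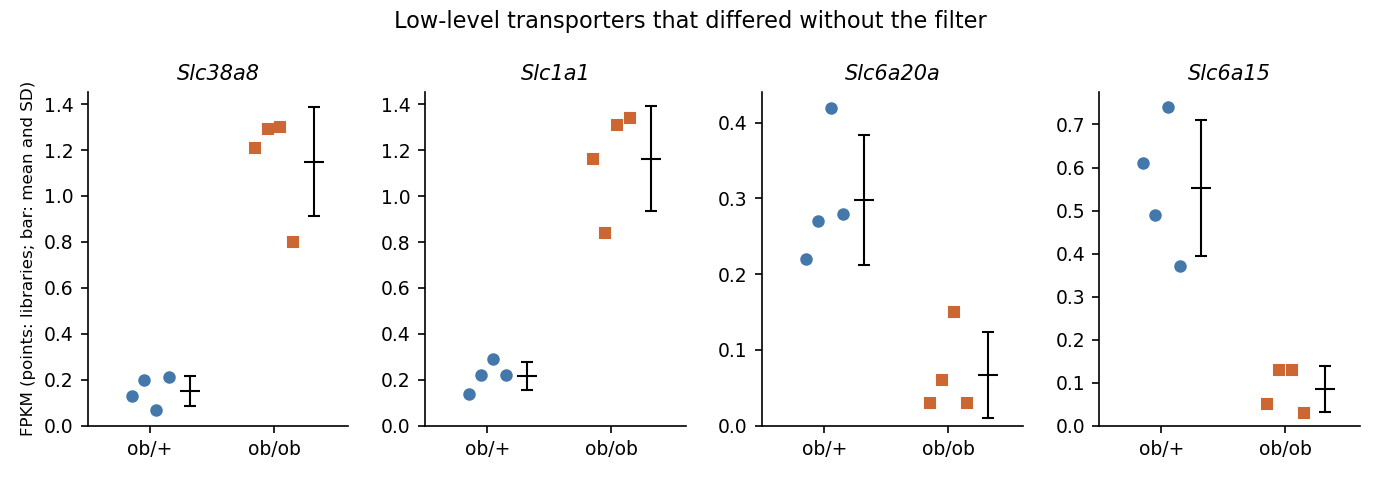
FPKM on linear axes from 0 of the 4 members below the filter that passed the test when every gene was fitted, with ob/+ libraries as circles, ob/ob libraries as squares, and means with SD as bars. Slc38a8 and Slc1a1 lie at 0.07 to 0.29 in ob/+ and at 0.80 to 1.34 in ob/ob, and Slc6a20a and Slc6a15 lie lower in every ob/ob library than in any ob/+ library.

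The remaining low members did not pass the test when every gene was fitted. Slc3a1, the heavy chain of the cystine and dibasic amino acid carrier, was at 0.86, 0.53, 0.55 and 0.82 FPKM in ob/+ 1 to 4 and at 1.46, 1.48, 0.78 and 0.95 in ob/ob 1 to 4 (limma adjusted p = 0.0962 without the filter). Its groups overlapped, and it shares 601 of 2271 exonic bases with Prepl, at 41.6 to 63.0 FPKM, on the opposite strand. Its light chain partner Slc7a9 reached 0.03 FPKM at most. Slc7a3, a cationic carrier, was at 0.648 ± 0.123 and 0.475 ± 0.129 FPKM (SD, n = 4 each), while Slc7a10, Slc7a13, Slc7a15 and Slc6a20b were at no more than 0.20, 0.03, 0.58 and 0.06 FPKM.

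Other genes that handle amino acids were read from the same fit as 4 further lists. The median log2 fold change was -0.15 over the tested enzymes, -0.13 over genes that signal to mTORC1, 0.14 over receptors and -0.08 over mitochondrial carriers, where all tested genes had -0.07. Of 43 tested genes listed as enzymes of amino acid metabolism, 8 rose and 8 fell, or 37.2% called, beside 18.8% of all tested genes. The lists were chosen with earlier results of these data known, so a share above that of all genes cannot be read as an excess. The creatine kinase Ckb, whose substrate enters through Slc6a8, rose from 20.3 ± 2.88 to 41.3 ± 1.65 FPKM (SD, n = 4 each; limma adjusted p = 1.73e-07). Gad1, which makes GABA from glutamate, fell from 39.6 ± 6.99 to 10.6 ± 0.818 FPKM (log2 fold change -1.80 ± 0.12 SE; limma adjusted p = 5.73e-11), and glutamine synthetase (Glul) fell from 163.1 ± 31.2 to 76.7 ± 7.65. These 3 genes had the smallest p of the 43 enzymes. Their groups did not overlap, as for 20.5% of all tested genes, which the choice by p favours. Of 30 tested genes that pass amino acid signals to mTORC1 4 fell and 1 rose, or 16.7%, which is near the 18.8% of all tested genes. Those that fell include Fnip2 (limma adjusted p = 0.000102) and the Rag GTPases Rragb (0.000211) and Rragc (0.00492).

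Of 12 tested receptors for glutamate, GABA, glycine and amino acids 3 rose and 1 fell, or 33.3% called, beside the same 18.8%. Since this list was also chosen with earlier results known, its share cannot be read as an excess either. The GABA receptor subunits Gabra4 and Gabbr2 rose from 1.48 ± 0.200 to 3.62 ± 0.505 and from 6.32 ± 1.24 to 10.5 ± 0.992 FPKM, and the glutamate receptor subunit Grin1 fell from 13.0 ± 1.63 to 7.97 ± 0.788 (SD, n = 4 each). None of 8 tested mitochondrial amino acid carriers was called by limma, and 1 had an unadjusted p under 0.05, the glutamate carrier Slc25a22 (adjusted p = 0.1).

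The counts of called members moved with the library scaling. There were 2 higher and 2 lower members with the deposited scaling, 3 and 1 when it ignored the 10 most abundant genes, and 1 and 11 when it ignored the acinar markers. Over all tested genes the same 3 scalings gave 965 higher and 1243 lower, 1272 and 629, and 492 and 6935, with median log2 fold changes of -0.07, 0.03 and -0.32. Relative to those medians Slc7a8 and Slc38a11 kept their side and their call under all 5 scalings tried. Without ob/+ 4, 11 of 31 tested members were called, 4 higher and 7 lower. Over all 11918 genes tested in that fit 5003 were called, 1126 higher and 3877 lower. Slc1a1 and Slc38a8 were among the 4 higher, since the filter then asked for 3 libraries, which they met in ob/ob alone. Without both ob/+ 4 and ob/ob 1, 8 of 29 tested members were called, 1 higher and 7 lower. In that fit 4242 of all 11873 tested genes were called, 1102 higher and 3140 lower.

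**Figure D5:**
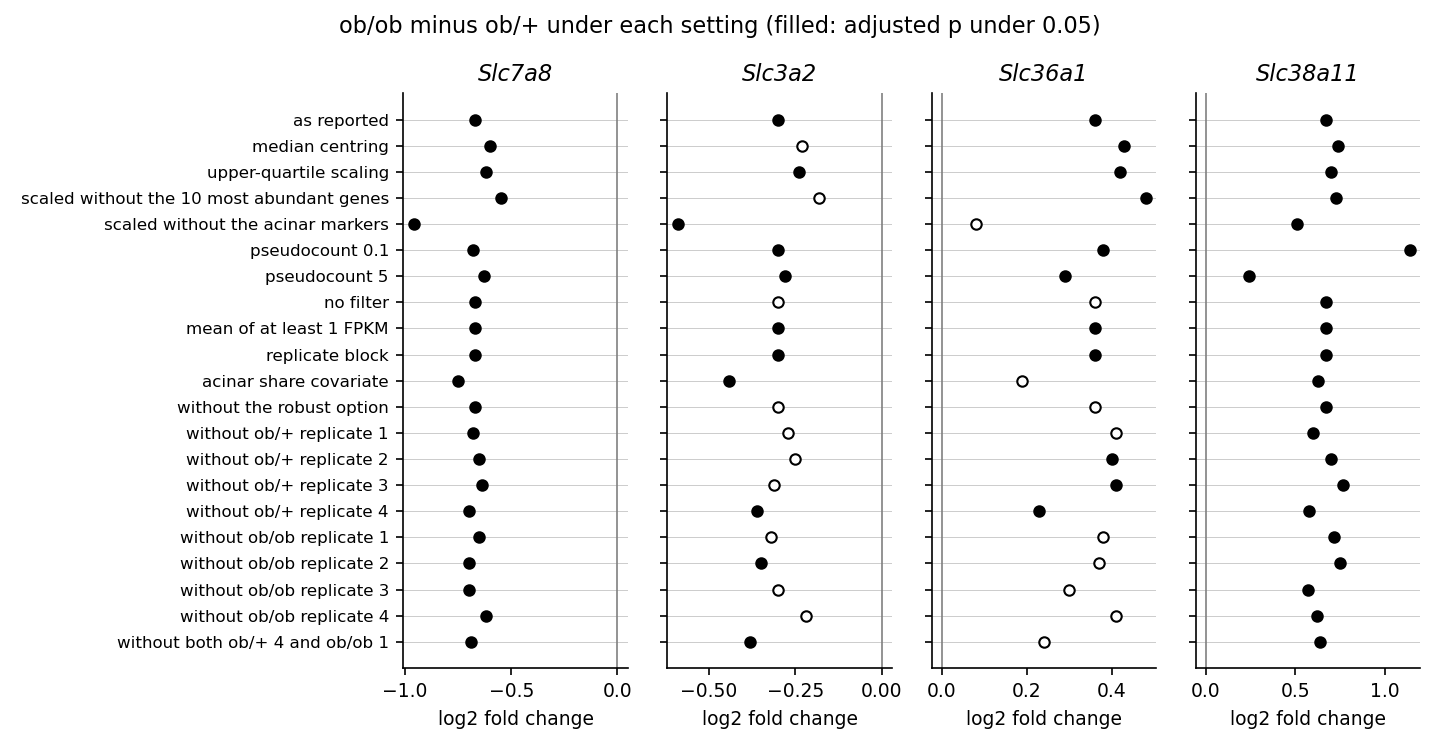
log2 fold change, ob/ob minus ob/+, of the 4 called members as reported and under 20 other settings, with filled points where the limma adjusted p was under 0.05. Slc7a8 (-0.96 to -0.55) and Slc38a11 (0.24 to 1.14) are filled throughout, and Slc3a2 and Slc36a1 are open in 10 of the 20.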

How the data were processed

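Islets were freed with collagenase (1 mg/ml), purified on a density gradient and hand-picked, and libraries were made from 1 µg of total RNA, per the labels' protocols. The deposited values are FPKM as the authors computed them, a unit inferred from the values (2 decimals, sums that differ between libraries). The submitters' processing notes list Trimmomatic 0.36 and DESeq2 1.20.0, and as builds GRCm38 and mm10, with no roles. Which programs aligned and quantified the reads is not given in the sources used here. Groups follow the labelled genotype.

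A gene entered the test if 4 or more libraries reached 1 FPKM. The two-sided test was limma 3.58.1 on log2(FPKM + 1), run under R 4.3.3 with the trend and robust options of eBayes (statmod 1.5.0) and a threshold of 0.05 on Benjamini-Hochberg adjusted p-values. Fold changes on this scale understate those of low genes. The test was checked on simulated data in which genes varied independently. These held no shift in library composition, so the check does not bear on how the calls depend on the scaling. Cell type shares were compared with SciPy 1.17.1 over 70 assignments. No libraries were duplicates (at most 0.766% of values were identical). Relative depth came from the steps of low values of genes with 1 annotated transcript. Gene positions come from GENCODE M21 on GRCm38, in which all 57 symbols had 1 match, and promoters from RefSeq, in which 42 matched.

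Members with a call or a mean of at least 5 FPKM in a genotype were named with values. Of each pathway list at most the 3 genes with the smallest p were named. Some results of the fit are not reported here. The members and lists were chosen with earlier results of these data known. The marker lists were of beta, alpha, delta and PP, acinar, duct, endothelial, stellate and pericyte, macrophage and lymphocyte cells, and of Schwann cells and neurons. The alternatives covered the scaling, pseudocount, filter, covariates, the robust option and leaving out libraries; the one without both ob/+ 4 and ob/ob 1 was chosen after seeing the data.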

Additional observations from a re-analysis of the deposited data

Results flagged for a closer look

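In 33 members, each checked in both genotypes (66 groups of 4), a library stood apart from the other 3 of its genotype in 7 groups, its gap to the nearest of them exceeding the critical share of the group's range in Dixon's test. Chance gives about 1 in 20 groups if they are independent. The groups here share the same libraries, so that share cannot be used to weigh the 7 groups. Library ob/+ 4 was the low one in 5 of them: Slc36a1 at 10.9 FPKM (others 16.2 to 16.5), Slc38a4 at 48.3 (66.8 to 70.5), Slc7a6 at 3.25 (5.22 to 5.38), Slc7a6os at 6.93 (8.71 to 8.96) and Slc38a9 at 0.85 (1.25 to 1.32). This library also had the largest acinar share, 24.5% of summed FPKM, whose part in these values was not tested. Slc1a5 was high in ob/ob 3, at 4.88 FPKM (others 3.09 to 3.35). Slc7a6 was high in ob/ob 2, at 4.97 (4.66 to 4.71), a gap of small absolute size.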

How the results depend on the processing

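Of the 4 called members, Slc7a8 and Slc38a11 passed in 20 of 20 alternatives, and Slc3a2 and Slc36a1 in 10 of 20 with no change of sign. The count of called members, 4 as reported, was 7 with upper-quartile scaling, 12 with scaling without the acinar markers, 2 without the robust option, 8 without both ob/+ 4 and ob/ob 1, and 2 to 11 on leaving out 1 library, the 2 without ob/ob 3 and the 11 without ob/+ 4. The count over all tested genes, 2208 as reported, was 3429 with median centring, 3465 with upper-quartile scaling, 7427 with scaling without the acinar markers, 4242 without both ob/+ 4 and ob/ob 1, and 1560 to 5003 on leaving out 1 library, the 5003 without ob/+ 4. The cause was not tested. With the replicate number as a block, 4 members and 2674 genes were called. Deviations of same-numbered libraries correlated at -0.22, 0.212, 0.172 and 0.124, so the numbers were not taken to pair the libraries.

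Of the 17 named members that were not called, 11 passed in 1 or more of 20 alternatives: Slc38a7 in 6, Slc43a3 in 5, Slc38a10, Slc6a9 and Slc7a1 in 3 each, Slc6a17 and Slc7a14 in 2 each, and Slc38a2, Slc38a6, Slc6a8 and Slc7a6os in 1 each. Among members that were not called, log2 fold changes turned sign as follows, and the cause was not tested. Without the acinar markers in the scaling they were -0.07 for Slc38a10, -0.13 for Slc38a4, -0.11 for Slc38a6, -0.14 for Slc43a2, -0.20 for Slc6a6 and -0.17 for Slc7a4. With the acinar share as a covariate they were -0.02 for Slc38a4, -0.06 for Slc38a6, 0.20 for Slc38a3, -0.01 for Slc6a6 and 0.02 for Slc6a9. With the 10 most abundant genes out of the scaling they were 0.07 for Slc38a2, 0.02 for Slc6a17, 0.02 for Slc6a8, 0.02 for Slc7a14 and 0.06 for Slc7a6os. With median centring they were 0.03 for Slc38a2 and 0.02 for Slc7a6os, with upper-quartile scaling 0.01 for Slc38a2, and without both ob/+ 4 and ob/ob 1 -0.04 for Slc6a6. Leaving out 1 library gave -0.30 to 0.02 for Slc1a4, -0.21 to 0.07 for Slc38a2, -0.29 to 0.05 for Slc6a17, -0.03 to 0.17 for Slc6a6, -0.18 to 0.01 for Slc6a8 and -0.13 to 0.02 for Slc7a6os. Absolute depth is unknown, which limits the members under 1 FPKM most.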
